A study of Homo sapiens with 16 samples.

Results

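Unlocalized contigs are stretches of the human reference sequence that have been assigned to a chromosome but have no position on it, and hg19 names them with the chromosome, the contig number and the ending "random". The peaks described here are all DNMT3B and OCT1 ChIP-seq peaks that lie on such contigs, chosen by that name alone, and they number 1031 of the 118439 peaks in the 4 deposited lists. MCF10CA1a cells, a highly invasive breast cancer line derived from xenografts of HRAS-transformed MCF10A cells, had been grown for 9 days with 7 µM pterostilbene (PTS), a stilbenoid found in blueberries, or with its vehicle, ethanol. For each antibody, the groups were PTS-treated cells and vehicle-treated cells, with 3 biological replicates and 1 input library per group. Both groups are the same cell line, which limits the comparison to this model. The labels call each list enriched in its treatment, and its peak names set that treatment against the other. Each list pools the 3 replicates of its group, so no spread between replicates can be given, and every comparison of pileups below carries counting error only. Pileup, the measure used throughout, is the number of pooled reads, extended to 200 bp, that overlap at the summit of a peak. It was scaled down in the PTS lists to the depth of the vehicle list of the same antibody. Pooled depth, worked out from the background pileup of each list and the genome size in the study's methods, came to about 47.3 M reads in PTS-treated cells and 43.2 M in vehicle-treated cells for DNMT3B. For OCT1 it was about 47.7 M in PTS-treated cells and 47.2 M in vehicle-treated cells.

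DNMT3B is a de novo DNA methyltransferase, known for methylating the satellite repeats beside the centromeres, which lose methylation in the immunodeficiency ICF syndrome when the enzyme is defective. OCT1, also called POU2F1, is a POU-domain transcription factor that recognises the octamer ATGCAAAT. Alpha satellite is the tandem repeat of human centromeres. Some of its units carry the CENP-B box, a motif bound by the centromere protein CENP-B. Unlocalized contigs often come from such repeats or from segments duplicated near the centromeres, where reads can have several equal placements.

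The sequences at the peaks were of both kinds. In the DNMT3B list of PTS-treated cells, the strongest peaks lay in a repeat in which each base tended to recur 171 bases on. This is the spacing of alpha satellite. The 300 bases around 3 of these summits (GRCh37, plus strand, from the reference and not from reads) are shown because these peaks had the highest DNMT3B pileups of PTS-treated cells among all contig peaks. Capitals mark the CENP-B box, searched on both strands.
GL000199 strongest peak, chr9_gl000199_random:57013-57312: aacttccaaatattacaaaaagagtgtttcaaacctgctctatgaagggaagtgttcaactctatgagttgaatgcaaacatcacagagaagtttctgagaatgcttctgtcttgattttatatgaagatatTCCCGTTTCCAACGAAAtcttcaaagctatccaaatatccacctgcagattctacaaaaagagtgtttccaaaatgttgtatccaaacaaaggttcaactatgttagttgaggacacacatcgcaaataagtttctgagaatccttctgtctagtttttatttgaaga
GL000199 next strongest peak, chr9_gl000199_random:92602-92901: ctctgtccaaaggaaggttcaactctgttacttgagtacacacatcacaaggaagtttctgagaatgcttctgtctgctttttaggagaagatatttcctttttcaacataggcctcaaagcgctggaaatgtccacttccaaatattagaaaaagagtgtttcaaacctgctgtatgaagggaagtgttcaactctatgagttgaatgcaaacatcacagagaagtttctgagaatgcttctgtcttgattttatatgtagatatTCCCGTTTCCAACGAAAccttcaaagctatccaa
GL000208 strongest peak, chr19_gl000208_random:90438-90737: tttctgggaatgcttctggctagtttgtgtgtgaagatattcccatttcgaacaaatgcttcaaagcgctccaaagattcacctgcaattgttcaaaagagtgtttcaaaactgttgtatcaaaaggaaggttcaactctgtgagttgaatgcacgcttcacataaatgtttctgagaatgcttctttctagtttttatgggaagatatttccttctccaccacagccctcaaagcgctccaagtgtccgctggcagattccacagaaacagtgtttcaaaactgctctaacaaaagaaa
At the first summit, 75.2% of the bases equalled the base one unit on. The value was 72.1% at the next and 61.8% on GL000208. The pair from GL000199 each held 1 CENP-B box and the window from GL000208 held none. Short stretches of 31 bases (31-mers) in these windows had a median of 39, 9 and 2 copies in the reference genome, in the order shown.

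The strongest peaks of GL000193 and GL000195 had no such repeat, and both are shown for contrast, with no searched motif in them.
GL000193 strongest peak, chr4_gl000193_random:86358-86657: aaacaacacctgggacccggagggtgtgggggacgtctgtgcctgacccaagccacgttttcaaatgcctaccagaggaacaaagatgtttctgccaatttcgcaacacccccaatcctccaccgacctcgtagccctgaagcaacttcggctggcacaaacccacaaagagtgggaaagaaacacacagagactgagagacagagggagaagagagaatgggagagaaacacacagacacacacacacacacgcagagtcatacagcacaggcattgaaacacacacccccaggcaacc
GL000195 strongest peak, chr7_gl000195_random:26144-26443: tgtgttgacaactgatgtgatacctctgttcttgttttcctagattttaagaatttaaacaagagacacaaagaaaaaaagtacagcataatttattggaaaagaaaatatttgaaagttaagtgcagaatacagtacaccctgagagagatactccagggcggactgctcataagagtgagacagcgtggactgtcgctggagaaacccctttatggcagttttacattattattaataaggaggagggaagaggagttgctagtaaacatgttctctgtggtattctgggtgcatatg
The identity at the repeat spacing was 31.2% in the window from GL000193 and 34.4% in that from GL000195. In the window from GL000195, 91.9% of the 31-mers occurred once in the reference, against 50.7% in that from GL000193.

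DNMT3B had 223 contig peaks of 4326 in PTS-treated cells (5.15%) and 269 of 15855 in vehicle-treated cells (1.70%). OCT1 had 240 of 16071 (1.49%) in PTS-treated cells and 299 of 82187 (0.364%) in vehicle-treated cells. All the unlocalized contigs together make up 0.0785% of the reference sequence. The number of contig peaks thus varied far less between lists than the total number of peaks, and the percentages above follow mainly the size of the lists.

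A larger share of contig peaks than of the whole lists passed the deposited P-value of 0.05. In DNMT3B lists, 116 of 223 contig peaks passed in PTS-treated cells (52.0%, against 24.6% of the whole list) and 126 of 269 in vehicle-treated cells (46.8%, against 7.57%). In OCT1 lists, 140 of 240 passed in PTS-treated cells (58.3%, against 9.11%) and 136 of 299 in vehicle-treated cells (45.5%, against 2.37%). Unplaced contigs, which are assigned to no chromosome, had lower shares than these in each list, but also above those of the whole lists. They were 46.2% and 34.5% for DNMT3B and 45.5% and 43.1% for OCT1, with PTS before vehicle. Peaks on the chromosomes passed in 20.04% and 5.63% for DNMT3B and in 6.88% and 1.86% for OCT1. Of all the peaks that passed, contigs held 10.9% and 10.5% of those of DNMT3B and 9.56% and 6.99% of those of OCT1. Peaks of 1 list are not replicates, so these shares were not tested.

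The deposited P-value carried no local control, although the study's methods name the pooled inputs as the background of the peak calling. In each list the background implied by pileup and fold enrichment was the same at every peak, 3.20 reads for DNMT3B and 3.50 for OCT1, on contigs as elsewhere. Every pileup value had 1 P-value, and the lowest pileup that passed was 24.65 in PTS-treated cells and 24 in vehicle-treated cells for DNMT3B, and 24.74 and 24 for OCT1. A contig peak that passed is therefore a place with many reads, in which the number of copies in the cells and the coverage of the inputs were not weighed. The inputs were not analysed here. No contig peak carried a chromatin state.

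Contig peaks were concentrated on a few contigs. Of the 20 unlocalized contigs, 12 had at least 1 peak and 8 had peaks in all 4 lists, and the 5 with the most peaks held 90.9% of the members. GL000195, assigned to chromosome 7 and 182896 bp long, had 75 DNMT3B peaks in PTS-treated cells and 77 in vehicle-treated cells, and 72 and 75 OCT1 peaks. GL000205 of chromosome 17 had 42 and 39 DNMT3B peaks and 42 and 40 OCT1 peaks, PTS before vehicle. Counts on these contigs were thus nearly level over treatments and antibodies. GL000198 of chromosome 9 had 26 and 25 DNMT3B peaks and 22 and 28 OCT1 peaks. Counts were less even on GL000193 of chromosome 4, which had 22 DNMT3B peaks in PTS-treated cells and 50 in vehicle-treated cells, and 44 OCT1 peaks in PTS-treated cells and 74 in vehicle-treated cells. Those of them that passed the deposited P-value numbered 8 and 10 for DNMT3B and 15 and 17 for OCT1, so the peaks that separate these counts are ones of low pileup. GL000199 of chromosome 9 had 45 and 55 DNMT3B peaks and 40 and 44 OCT1 peaks, and GL000208 of chromosome 19 had 9 and 11 DNMT3B peaks and 7 in each OCT1 list. GL000194 of chromosome 4 had 2 and 7 DNMT3B peaks and 10 and 16 OCT1 peaks, and GL000192 of chromosome 1 had 2 and 4, and 3 and 7. The other 4 contigs with peaks, GL000202, GL000203, GL000204 and GL000207, had 9 peaks between them, none past the deposited P-value and 8 of them in the OCT1 list of vehicle-treated cells.

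**Figure D1:**
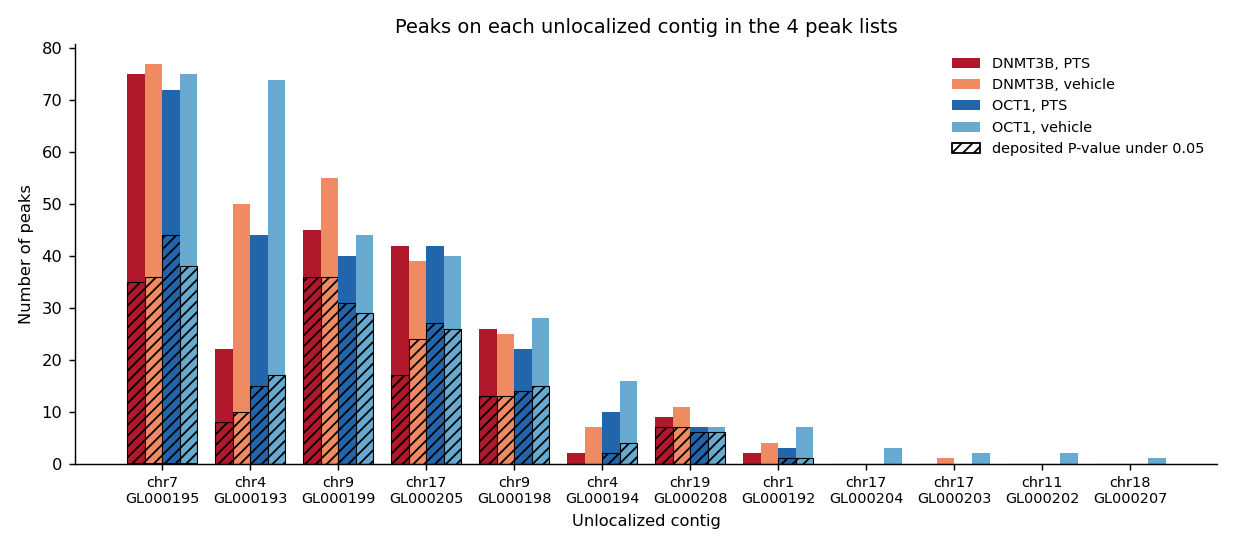
Number of peaks (vertical axis) on each of the 12 unlocalized contigs with peaks, one bar per list, with the hatched part for peaks at a deposited P-value under 0.05. Bars are nearly level over the 4 lists on GL000195 and GL000205, while GL000193 runs from 22 peaks for DNMT3B in PTS-treated cells to 74 for OCT1 in vehicle-treated cells.

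The chromosome in a contig's name was not always where its sequence was most often found. Of the 31-mers of GL000194, 74.4% occurred on chromosome 21 and 16.6% on its own chromosome 4. For GL000192, 57.1% occurred on chromosome 16 and 42.1% on its own chromosome 1. GL000195 and GL000205, assigned to chromosomes 7 and 17, shared sequence with each other: 40.9% of the 31-mers of GL000195 were also in GL000205, and 38.5% the other way. Only 4.10% and 4.67% of their 31-mers occurred on their own chromosomes. Shared 31-mers made up 15.7% of GL000195 inside its peaks and 64.1% outside, and 9.96% of GL000205 inside its peaks and 54.6% outside. The peaks on this pair thus lay mostly in the sequence by which the contigs differ.

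Peaks as a whole fell on sequence with few copies. Over all contigs, 63.3% of the 31-mers inside a peak of any list occurred once in the reference genome, against 17.5% outside peaks. The sequence outside peaks took in the 8 contigs without peaks, where 0.032% to 15.9% of the 31-mers occurred once. The share was higher inside peaks on 11 of the 12 contigs with peaks. GL000195 had 74.2% inside and 32.2% outside, GL000205 77.7% and 34.5%, GL000198 63.5% and 11.9%, and GL000193 54.6% and 28.4%. GL000199 and GL000208, which had the alpha satellite spacing at most of their summits, were different. GL000199 had 19.2% inside its peaks and 15.2% outside, with a median of 32 copies of a 31-mer inside, and GL000208, the exception in direction, had 40.04% inside and 46.6% outside. On the 8 contigs without peaks, 79.6% to 99.97% of the 31-mers also occurred elsewhere in the reference, and 79.2% to 99.97% occurred on the chromosome that the contig is assigned to. The authors removed low-quality reads, but whether those with several equal placements were among them is not given in the sources used here. Its part in where peaks lie was not tested.

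**Figure D2:**
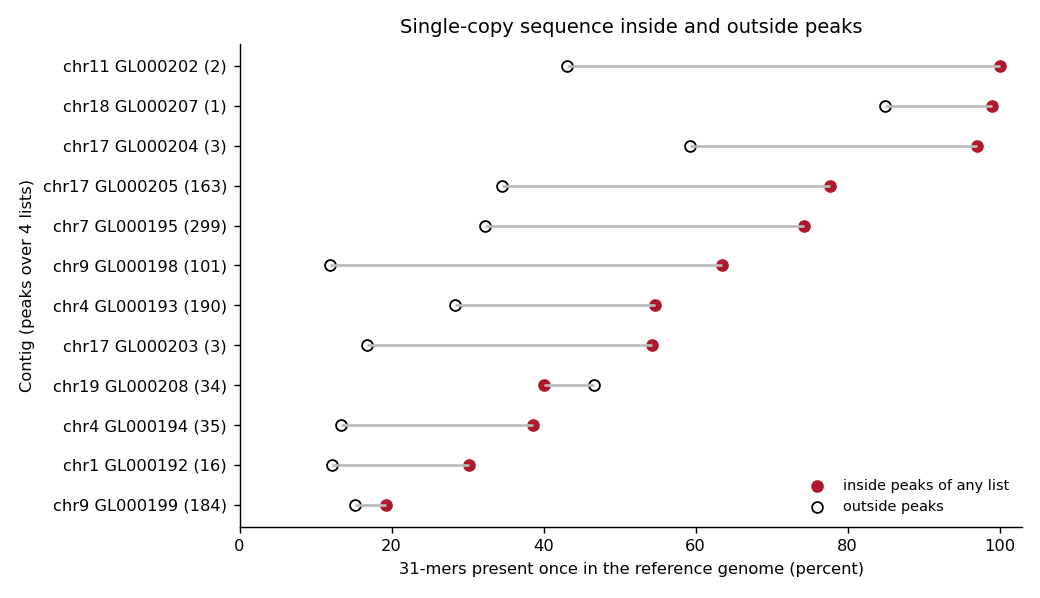
Share of 31-mers that occur once in the reference genome (horizontal axis, percent) inside peaks of any list (filled) and outside peaks (open), for each contig with peaks, with the number of peaks in parentheses. The share is 74.2% inside and 32.2% outside on GL000195, and 19.2% and 15.2% on GL000199.

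Along several contigs, stretches with peaks alternated with long stretches that held no peak of any list. On GL000198, the longest stretch without a peak of any list took up 59.9% of the contig, or 53.9 kb. There, 78.2% of the 300 bp tiles held the alpha satellite spacing and 0.773% of the 31-mers occurred once. In the rest of that contig, 6.67% of the tiles held the spacing and 59.3% of the 31-mers occurred once, and that is where its peaks lay. The last 38.8 kb of GL000195 (21.2% of it) had no peak, and 8.15% of the 31-mers there occurred once, against 64.3% in the rest. A stretch of 40.4 kb in GL000205 and the last 38.1 kb of GL000193 were also free of peaks, with 9.19% and 7.84% of 31-mers occurring once. A stretch of 80.7 kb in GL000194 had none either, with 10.2% of 31-mers occurring once against 17.7% in the rest. On GL000199, in contrast, the longest stretch without peaks was 14.3 kb, and it had more 31-mers that occur once (43.3%) than the rest (13.3%). GL000208 went the same way as GL000199, with 60.3% in its longest such stretch of 21.6 kb and 41.9% in the rest. On GL000208, peaks stood at both ends, with 6 of 9 DNMT3B summits under PTS and 5 of 11 under vehicle in the last 10% of its length, and 5 of 7 OCT1 summits in each treatment.

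**Figure D3:**
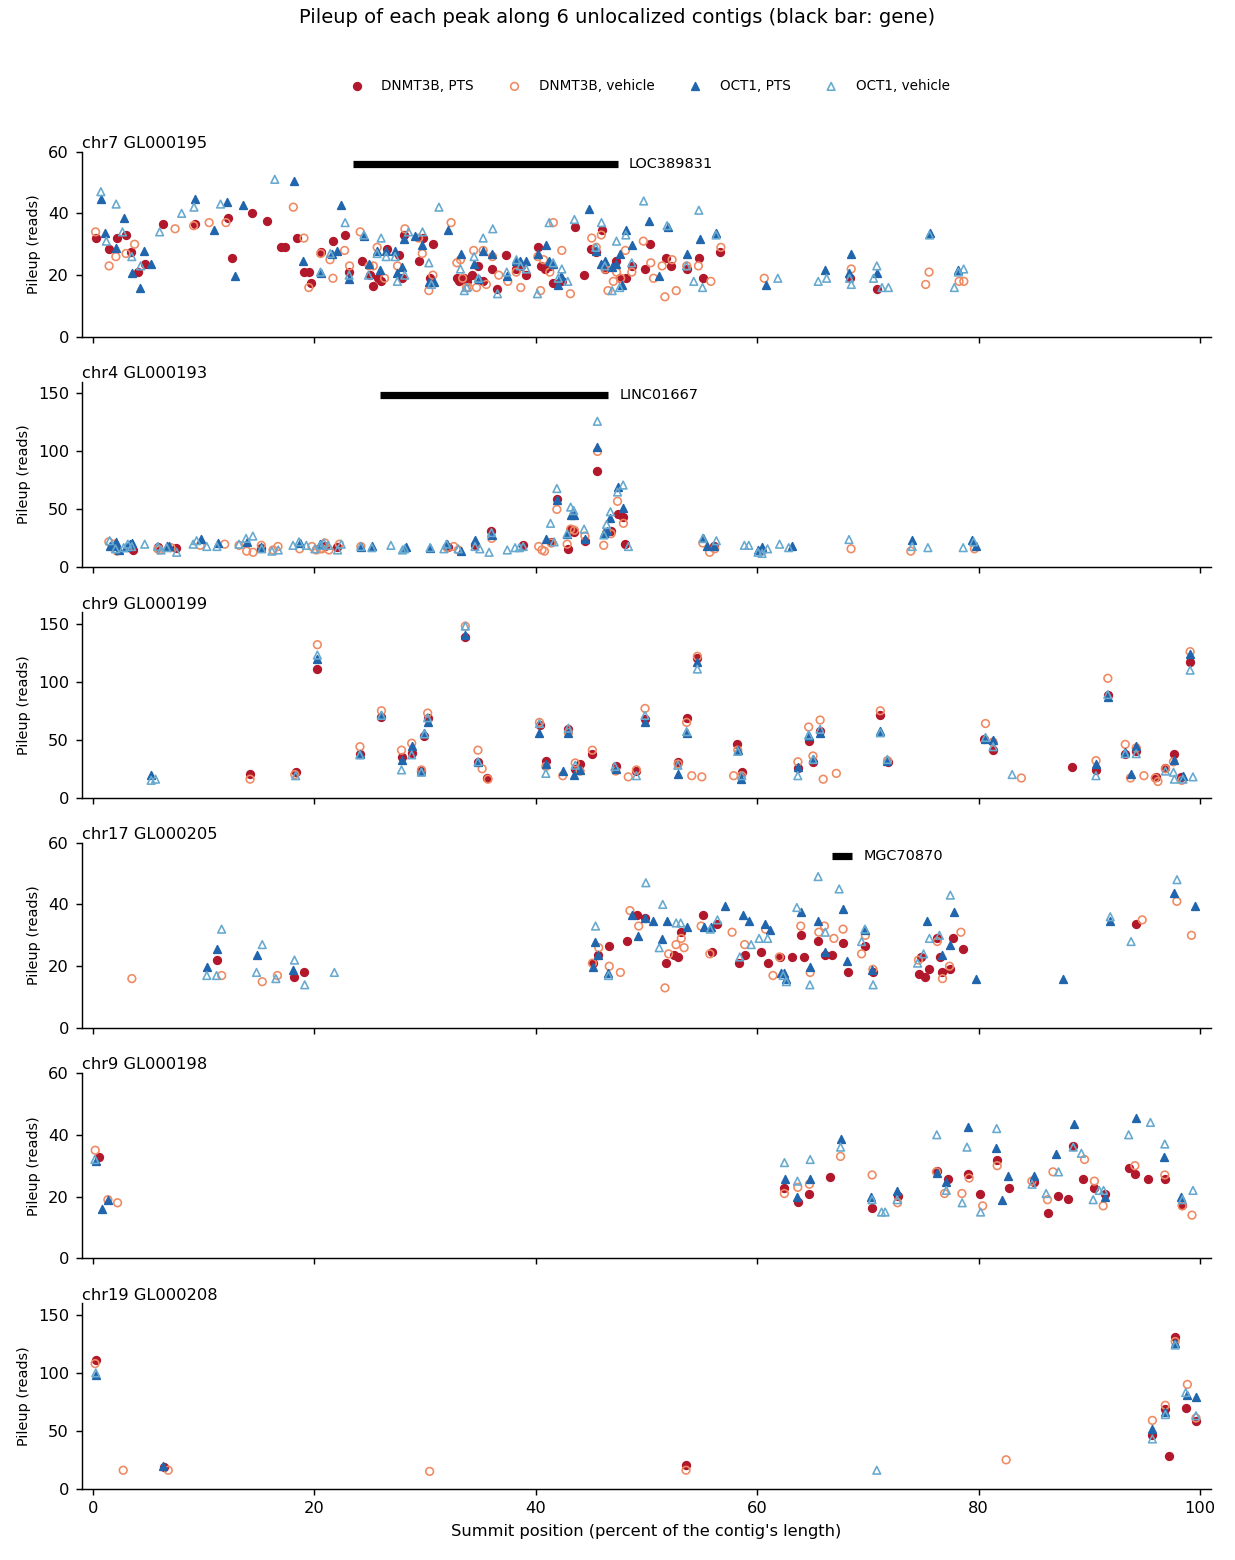
Pileup of each peak (vertical axis, reads) against the position of its summit (horizontal axis, percent of the contig's length) on 6 contigs, with filled marks for PTS, open marks for vehicle, circles for DNMT3B and triangles for OCT1, and a black bar over the gene. The strongest marks of the 4 lists fall together on GL000199, where pileups reach 138.79 (DNMT3B) and 140.52 (OCT1) in PTS-treated cells and 148 for both antibodies in vehicle-treated cells.

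The sequence at the summits differed between contigs in the same way. On GL000199, 29 of 45 windows of 300 bp around DNMT3B summits in PTS-treated cells held a CENP-B box, as did 36 of 55 in vehicle-treated cells. OCT1 windows held one in 26 of 40 cases in PTS-treated cells and 27 of 44 in vehicle-treated cells. Of the 566 tiles of the same length that make up the contig, 260 held a box, and 64.8% had the repeat spacing, against 29 of 45 and 37 of 55 DNMT3B windows and 28 of 40 and 30 of 44 OCT1 windows, PTS before vehicle. On GL000198, 49.7% of the tiles had the spacing, but only 1 of 26 DNMT3B windows in PTS-treated cells and 3 of 25 in vehicle-treated cells, and 3 of 22 and 1 of 28 OCT1 windows. GL000198 held no CENP-B box at all. So satellite sequence was under peaks on GL000199 and mostly not on GL000198.

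Over all contigs, a CENP-B box was in 13.0% of DNMT3B windows in PTS-treated cells and 14.1% in vehicle-treated cells, and in 11.2% and 9.03% of OCT1 windows. It was in 5.07% of the tiles of the contigs with peaks, and in 2.23%, 0.557%, 0.532% and 0.137% of the windows on chromosomes in the same order of lists. Of the contig windows with a box, 29 of 29 and 36 of 38 for DNMT3B were on GL000199. For OCT1 it was 26 of 27 and 27 of 27, PTS before vehicle, so the contig shares describe mainly that contig. The octamer was in 1.35% and 2.23% of DNMT3B windows and in 2.92% and 1.67% of OCT1 windows, against 2.65% of the tiles. Over whole peaks, which are longer than the tiles, these shares were 2.24% and 4.09% for DNMT3B and 3.75% and 3.68% for OCT1. Adjoining ATTCC pentamers, the unit of satellites 2 and 3, were in none of the contig windows of any list and in 0.117% of the tiles. Windows on chromosomes held them in 5.71% and 1.72% of cases for DNMT3B and in 1.57% and 0.347% for OCT1, PTS before vehicle, and windows on unplaced contigs in 1.73% to 3.10%. Letters in a window are a description and say nothing of what bound there.

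The highest pileup of every list on the contigs was at the same place, on GL000199 with summits at positions 57160 to 57163. DNMT3B pileup there was 138.79 in PTS-treated cells and 148 in vehicle-treated cells. OCT1 pileup there was 140.52 in PTS-treated cells and 148 in vehicle-treated cells. Among all peaks of its list, this peak ranked 23 for DNMT3B in both treatments and, for OCT1, 23 in PTS-treated cells and 20 in vehicle-treated cells. The strongest peak of GL000208, near its end, had DNMT3B pileups of 130.57 in PTS-treated cells and 127 in vehicle-treated cells and OCT1 pileups of 125.67 in PTS-treated cells and 124 in vehicle-treated cells. The 4 lists thus had close pileups at both places, for a DNA methyltransferase and a transcription factor alike.

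When the peaks of all lists were merged within 200 bp, the contigs held 253 regions, of which 112 had a peak in all 4 lists and 75 in only 1. The share of regions in all 4 lists was 83.3% on GL000198, 65.2% on GL000195, 61.1% on GL000199 and 57.1% on GL000205, and it was 12 of 60 regions on GL000193. In 19 regions the pileup was at least 50 in all 4 lists, a set chosen after the values were seen. There, the 4 summits lay a median of 4 bp apart, at most 178 bp, and the highest of the 4 pileups was 1.05 to 1.52 times the lowest. Over all 112 regions with a peak in the 4 lists, the summits lay further apart, with a median of 135 bp. The highest pileup was there a median of 1.36 times the lowest. Of the regions with a peak in only 1 list, 47 were in the OCT1 list of vehicle-treated cells, the longest list, and 21 in the DNMT3B list of vehicle-treated cells. The others were 6 of OCT1 and 1 of DNMT3B in PTS-treated cells.

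Contig peaks were shared between treatments and between antibodies in larger shares than the lists as a whole, as were those of unplaced contigs. Of the DNMT3B contig peaks of PTS-treated cells, 214 of 223 (96.0%) had a DNMT3B peak of vehicle-treated cells within 200 bp, against 68.9% of the whole list. In the other direction it was 201 of 269 (74.7%, against 18.7%). For OCT1, 228 of 240 contig peaks in the PTS list (against 63.0%) and 218 of 299 in the vehicle list (72.9%, against 12.5%) had one of the other treatment. On unplaced contigs these shares were 94.96% and 65.8% for DNMT3B and 92.3% and 76.6% for OCT1, PTS before vehicle. So although the labels call each list enriched in its treatment, most contig peaks of every list had one of the other treatment within 200 bp. The 9 DNMT3B peaks found in PTS-treated cells alone had pileups of 15.52 to 26.48, and the 68 found in vehicle-treated cells alone had 13 to 30. Of peaks past the deposited P-value, 115 of 116 and 123 of 126 for DNMT3B, and 139 of 140 and 129 of 136 for OCT1, PTS before vehicle, lay beside one of the other treatment. Over all peaks past it, 99.3% and 93.3% for DNMT3B and 98.1% and 84.8% for OCT1 did so, so in the PTS lists the contigs were near the share of the whole list.

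Between antibodies, 200 of 223 DNMT3B contig peaks (89.7%, against 66.8%) had an OCT1 peak within 200 bp in PTS-treated cells, and 233 of 269 (86.6%, against 55.5%) in vehicle-treated cells. In the other direction it was 189 of 240 OCT1 contig peaks (78.8%, against 18.3%) in PTS-treated cells and 222 of 299 (74.2%, against 11.0%) in vehicle-treated cells. On unplaced contigs, 89.7% and 86.7% of DNMT3B peaks lay beside an OCT1 peak and 67.8% and 79.5% of OCT1 peaks beside a DNMT3B peak, PTS before vehicle, so this sharing was not particular to contigs with a known chromosome. Only 6 regions had DNMT3B peaks in both treatments and no OCT1 peak, and 4 of these were on GL000199. The strongest, at positions 76478 to 76811, had DNMT3B pileups of 37.44 in PTS-treated cells and 41 in vehicle-treated cells. The reverse, OCT1 peaks in both treatments and no DNMT3B peak, held for 12 regions, 5 of them on GL000193 and 1 on GL000199, all with pileups between 13 and 23.75.

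Where both treatments had a peak, DNMT3B pileup at the contigs differed little between them. Regions with a peak in 1 treatment alone have no ratio and are left out here. At the 136 contig regions with a DNMT3B peak in both lists, the median ratio of PTS to vehicle pileup was 0.961, with 58 regions above 1 and 78 below. Each ratio sets the highest pileup of 1 list in a merged region against that of the other. In long regions these can be different summits, as on GL000205 at positions 159239 to 174565, where 1 PTS peak stood against 3 vehicle peaks. The ratio of the summed pileups was 0.949, with a 95% exact interval of 0.913 to 0.987 that covers counting error only, against 0.985 (0.973 to 0.997) at the regions on chromosomes. This direction rests on the depth scaling, since without it the median ratio was 1.05. The interval lay below 1 at 1 contig region (0.131% of all 2290 regions) and above 1 at none (0.0437%). That region, on GL000195 at positions 75852 to 76296 and inside LOC389831, had DNMT3B pileups of 17.35 in PTS-treated cells and 37 in vehicle-treated cells, a ratio of 0.469 (0.255 to 0.837). OCT1 pileups at the same place were 23.75 in PTS-treated cells and 24 in vehicle-treated cells. This was 1 of 136 intervals, each at 95% confidence.

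OCT1 pileup at the contigs also differed little where both treatments had a peak. At 155 regions with an OCT1 peak in both lists, the median ratio of PTS to vehicle was 1.00, with 78 regions above 1 and 77 below, and the ratio of sums was 0.993 (0.957 to 1.03). No interval lay off 1, where 0.126% of all 7946 regions lay above and 0.151% below. The lowest single ratio was 0.667 (0.402 to 1.09), from pileups of 28.7 in PTS-treated cells and 43 in vehicle-treated cells, and the highest was 1.91 (0.966 to 3.94), from 26.72 and 14. Both were on GL000195. The median ratio by contig ran from 0.938 on GL000199 to 1.03 on GL000208 for DNMT3B, and from 0.990 on GL000193 and GL000195 to 1.04 on GL000198 for OCT1, over the contigs with at least 4 regions other than GL000194, where 5 OCT1 regions had 1.20.

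**Figure D4:**
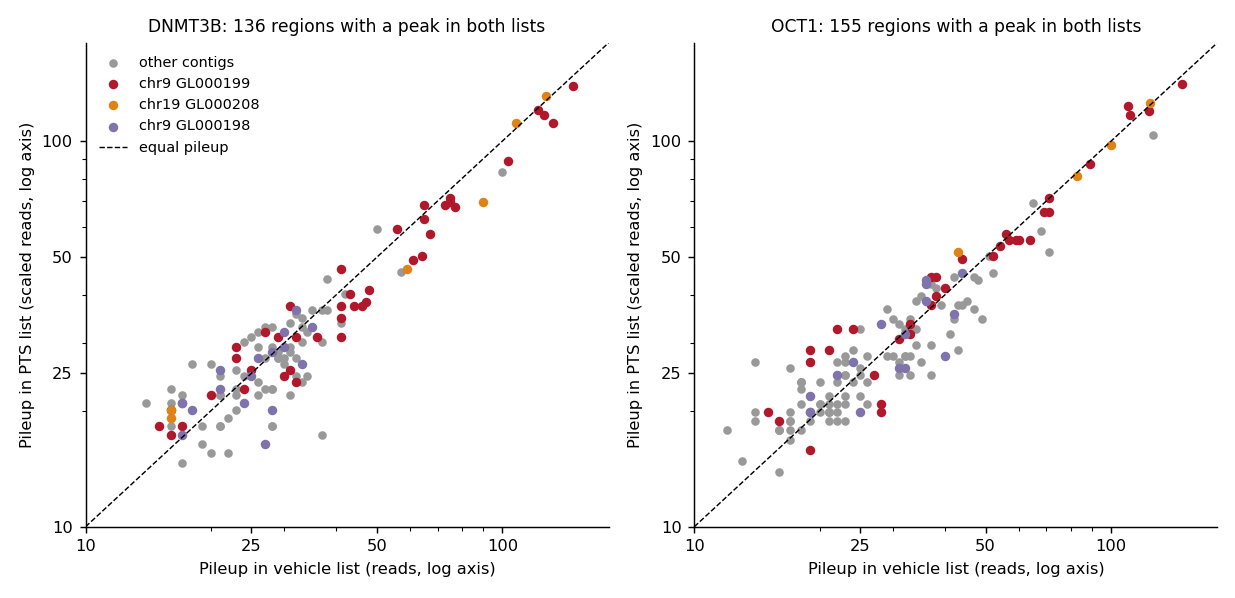
Pileup in the PTS list (vertical log axis, reads scaled to the vehicle depth) against pileup in the vehicle list (horizontal log axis, reads) at contig regions with a peak in both, 136 for DNMT3B (left) and 155 for OCT1 (right), with colours for GL000199, GL000208, GL000198 and the other contigs. Points lie along the line of equal pileup, and only 1 DNMT3B region, at 17.35 against 37, has a counting interval off it.

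The ratio of DNMT3B to OCT1 pileup was not the same on all contigs. Pileups were scaled to the background of each list for this comparison, which was added after the values were seen. On GL000199, DNMT3B pileup was the higher at 32 of 36 regions in PTS-treated cells (median ratio of DNMT3B to OCT1 1.11) and at 35 of 36 in vehicle-treated cells (1.22). Over the other contigs it was the higher at 34 of 96 regions in PTS-treated cells (0.932) and at 46 of 116 in vehicle-treated cells (0.957). Without the scaling, the counts on GL000199 were 30 and 31 of 36, and elsewhere 26 of 96 and 31 of 116. GL000208 had medians of 1.06 in PTS-treated cells and 1.18 in vehicle-treated cells, over 5 and 4 regions, and GL000198 had 0.965 and 0.979. GL000193 had 0.945 and 0.912, GL000195 0.925 and 0.957, and GL000205 0.927 and 0.952. For single regions the differences were within counting error nearly everywhere. The interval lay off 1 at none of 132 contig regions in PTS-treated cells (0.804% of all regions above 1 and 0.715% below). In vehicle-treated cells it lay above 1 at 3 of 152 and below 1 at 1 (0.778% and 0.425%). Base composition also differed between contigs. Median GC content of the DNMT3B windows under PTS was 37.3% on GL000199, 39.7% on GL000208 and 42.0% on GL000198. It was 44.7% on GL000195, 45.3% on GL000205 and 54.8% on GL000193. Under vehicle, these contigs had 37.3%, 39.3%, 42.3%, 44.3%, 45.7% and 50%, in the order just given. The median ratios under vehicle fell from contig to contig in that same order. Those under PTS did so down to GL000198, but not among GL000195, GL000205 and GL000193 (0.925, 0.927 and 0.945). The part of base composition was not tested, and regions of 1 contig share their libraries, so no test was made.

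**Figure D5:**
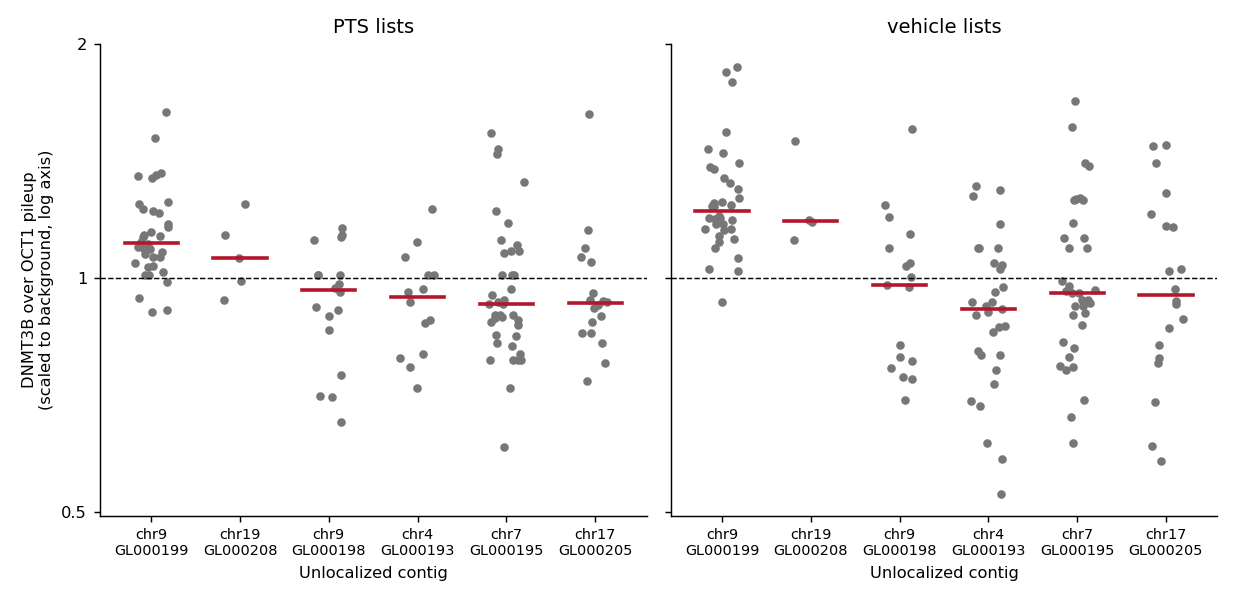
Ratio of DNMT3B to OCT1 pileup (vertical log axis, each scaled to its list's background) at each contig region with a peak of both antibodies, in PTS lists (left) and vehicle lists (right), with the red line at the median. GL000199 has medians of 1.11 (PTS) and 1.22 (vehicle), and GL000193, GL000195, GL000198 and GL000205 have medians below 1 in both panels.

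The lists assigned 5 genes to contig peaks, each contig having at most 1 gene. GL000198, GL000199, GL000208 and the contigs with 1 to 3 peaks had none, so that 80 of 223 and 92 of 269 DNMT3B peaks and 69 of 240 and 87 of 299 OCT1 peaks, PTS before vehicle, had no gene. A gene was assigned to every peak of its contig whatever the distance. Peaks that overlapped their gene made up 23.8% and 21.9% of the DNMT3B contig peaks and 22.9% and 23.1% of the OCT1 contig peaks.

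LINC01667, a long non-coding RNA gene on GL000193 (positions 49161 to 88375, minus strand), had the strongest peak that lay in a gene. Its summit was 1868 bp downstream of the gene's start in the DNMT3B list of PTS-treated cells and 1860 bp in that of vehicle-treated cells, and 1872 and 1885 bp in the OCT1 lists. DNMT3B pileup there was 83.09 in PTS-treated cells and 100 in vehicle-treated cells. OCT1 pileup was 103.9 in PTS-treated cells and 126 in vehicle-treated cells. The ratio of PTS to vehicle was 0.831 (0.619 to 1.11) for DNMT3B and 0.825 (0.630 to 1.08) for OCT1, so neither differed beyond counting error. Further strong regions lay within the same part of the contig, with 11 of 22 DNMT3B summits under PTS and 15 of 50 under vehicle between 40% and 50% of its length, and 12 of 44 and 14 of 74 OCT1 summits, PTS before vehicle. One of them, upstream of the gene's start at positions 90726 to 91548, had DNMT3B pileups of 43.83 in PTS-treated cells and 38 in vehicle-treated cells and OCT1 pileups of 51.46 in PTS-treated cells and 71 in vehicle-treated cells. In vehicle-treated cells its ratio of DNMT3B to OCT1 was 0.586 (0.384 to 0.880), the 1 contig region with an interval below 1 noted above.

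LOC389831, a long non-coding RNA gene on GL000195 (positions 42937 to 86735, minus strand), spans 23.9% of the contig. It held 39 of 75 DNMT3B summits in PTS-treated cells and 40 of 77 in vehicle-treated cells, and 35 of 72 and 37 of 75 OCT1 summits. Peaks covered 56.4% and 63.7% of the gene for DNMT3B and 50.6% and 58.1% for OCT1, against 30.7%, 34.5%, 33.0% and 35.5% of the rest of the contig in the same order. The strongest peaks of the contig lay outside the gene, with DNMT3B pileups of 40.18 in PTS-treated cells and 42 in vehicle-treated cells and OCT1 pileups of 50.47 in PTS-treated cells and 51 in vehicle-treated cells. Their summits were at different places in the 4 lists, between positions 26293 and 33325, in a stretch where single peaks were up to 11215 bp long.

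MGC70870, a transcribed pseudogene on GL000205 (positions 116622 to 119732, plus strand), was covered by peaks over 72.4% and 79.6% of its length for DNMT3B and 79.0% and 82.8% for OCT1, PTS before vehicle. The highest DNMT3B pileup of a peak that overlapped it was 27.39 in PTS-treated cells and 32 in vehicle-treated cells, and the highest OCT1 pileup was 38.59 in PTS-treated cells and 45 in vehicle-treated cells. The longest contig peak of all, of 15161 bp, was a DNMT3B peak of PTS-treated cells at the end of the same contig. Each of the other lists had 3 peaks over that stretch, the longest of them 7057 to 8745 bp.

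MAFIP, a transcribed pseudogene on GL000194 (minus strand, ending at position 115073), overlapped 0 DNMT3B peaks in the PTS list and 1 in the vehicle list, and 3 and 6 OCT1 peaks, PTS before vehicle, none past the deposited P-value. The peaks past it that were assigned to MAFIP, 2 of OCT1 in PTS-treated cells and 4 in vehicle-treated cells, lay outside the gene. CH17-408M7.1 on GL000192 (positions 429709 to 468683, minus strand) overlapped no peak, and the nearest was 42594 bp away. Its 1 OCT1 peak past the deposited P-value in each treatment had a pileup of 25.73 in PTS-treated cells and 24 in vehicle-treated cells, at different places in the last part of the contig.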

How the data were processed

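ChIP-seq of DNMT3B and OCT1 was analysed from 4 peak lists, 1 for each antibody and treatment, grouped by the sample labels. Those labels call each list enriched in PTS or in vehicle against the other. The study's methods also describe calls of differential peaks, and how these relate to the 4 lists is not given in the sources used here. Pileups were taken as those of the treatment named as enriched. Reads were trimmed (cutadapt) and mapped to GRCh37/hg19 (BWA) by the authors, who discarded duplicate and low-quality reads. Pooled reads of the 3 replicates, extended to 200 bp, went into MACS2. ChIPseeker assigned genes. Tool versions are not given in the sources used here. The deposited pileup is a coverage signal in reads, the deposited −log10 p column and the fold enrichment (a ratio to background) are those of MACS2, and the deposited P-value column is a score that falls with the −log10 column at a slower pace than a probability would. So 0.05 stands for a −log10 p of about 13. The step between PTS pileups, 0.913 for DNMT3B and 0.990 for OCT1, gives whole reads. Depth of single libraries is unknown.

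Each peak was counted once and peaks within 200 bp were called shared. For pileup ratios, peaks of a pair of lists within 200 bp were merged into regions, and the highest pileup of each list in a region was used. Those pileups need not come from the same summit. Exact (Clopper-Pearson) 95% intervals of these ratios were fitted over all regions of a pair of lists. Windows of 300 bp at summits, and tiles of 300 bp, were read from GRCh37, with the repeat called at 60% identity at 171 bases (±2), the spacing with the most identity between 100 and 400 bases on any contig. Copies of 31-mers were counted on both strands over the reference. The scripts (Python 3.11.15, NumPy 2.4.6, SciPy 1.17.1, pysam 0.24.0) were tested on simulated data. Gene positions are those of the lists and gene types those of RefSeq. The genes named are all that the lists assign to a contig peak past the deposited P-value. Members, lists and motifs were chosen with earlier results of these data known, and the repeat, 31-mer, peak-free-stretch and antibody-ratio measures after the values were seen. Inputs were not analysed here.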

Additional observations from a re-analysis of the deposited data

How the results depend on the processing

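The counts of contig peaks and of shared peaks kept within 1.5 times of their values when table lines were counted, when peaks within 200 bp were merged, when sharing required 1 bp or 50% of the shorter peak, or when gaps up to 1000 bp were allowed. With a deposited P-value under 0.01, the peaks that passed numbered 67 and 71 for DNMT3B and 83 for OCT1 in PTS-treated cells. Without GL000195, the contig with the most peaks, DNMT3B had 148 contig peaks in PTS-treated cells, and 0 DNMT3B regions had a pileup ratio interval off 1. Without the depth scaling, the median DNMT3B ratio of PTS to vehicle was 1.05 and lay on the other side of 1. The repeat spacing was found in 12.1% of whole DNMT3B peaks in PTS-treated cells and 12.6% in vehicle-treated cells, against 17.5% and 18.2% of summit windows. The shortest peaks left too few bases to compare and were counted as without the spacing, which lowers the shares of whole peaks. The octamer was in 2.24%, 4.09%, 3.75% and 3.68% of whole peaks (DNMT3B, then OCT1, PTS before vehicle). That was over 1.5 times the share of summit windows except for OCT1 in PTS-treated cells. The counts of regions with more DNMT3B than OCT1 pileup, tried unscaled and at regions past the deposited P-value alone, are alternatives chosen after seeing the data. The second gave 29 of 33 and 33 of 34 regions on GL000199, and 25 of 76 and 21 of 75 elsewhere, PTS before vehicle.

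No paired analysis was possible because each list pools its replicates, and for the same reason no replicate was left out. Single ratios rest on as few as 12 reads in a list, which limits them to wide intervals.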
